A study of Mus musculus with 16 samples.

Results

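Plasmacytoid DCs (pDCs) of wild-type (WT) mouse spleen were compared with the conventional DCs of the same tissue, cDC1s and cDC2s. The comparison took 8 of the 16 libraries of the series: 3 from WT pDCs, 2 from WT cDC1s and 3 from WT cDC2s. The mice were C57BL/6, 6 to 8 weeks old, and carried floxed Trim33 (Trim33 fl/fl) without a Cre transgene, so the WT groups are floxed controls. Where cKO libraries are named, Itgax-Cre, a transgene driven by the promoter of the gene for CD11c, had been added to the same floxed alleles. After depletion of other lineages, pDCs were sorted as CD11c+ SiglecH+ cells. Both cDC subsets were sorted as SiglecH- MHC II+ cells, with CD24 marking cDC1s and CD172a marking cDC2s. Each replicate was a biological repeat pooled from several mice, with more mice for a cKO than for a WT library.

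pDCs are known for detecting nucleic acids in endosomes through TLR7 and TLR9 and for answering with large amounts of type I interferon. cDC1s take up dead cells and present their antigens to CD8+ T cells, whereas cDC2s mainly prime CD4+ T cells. The pDC fate depends on the E protein TCF4, also called E2-2, and ID2 binds E proteins and keeps them from DNA. The balance of both proteins is a textbook description of the split between the lineages.

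The deposited values are TPM, a share of all transcripts scaled for their length, which allow levels to be compared between genes of different length. The pDC table and the cDC table were made apart, so the cell type and the table cannot be told apart, and no test was run across them. In place of a test, a gene was counted only when the difference was large. Its mean log2(TPM + 1) in pDCs had to lie at least 3 above both cDC means, an 8-fold difference, or at least 3 below both. In addition, every pDC library had to lie beyond every cDC library in TPM and in rank within the library. Of 16617 genes listed in both tables, 11701 had a mean of at least 1 TPM over the 8 WT libraries and entered the count. Fold changes on the log2(TPM + 1) scale understate the difference of low genes.

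WT pDCs differed from both cDC subsets in 432 genes by this rule. Of these, 234 genes were at least 8-fold higher in pDCs, 2.00% of the genes tested, and 198 were at least 8-fold lower, 1.69%. In 110 of the 234 and 76 of the 198, the side with the lower level averaged under 1 TPM, where values rest on few reads. The 234 genes made up 5.76% to 5.81% of all transcripts in the 3 pDC libraries. They made up 0.126% to 0.131% in cDC1s and 0.143% to 0.158% in cDC2s. The 198 lower genes held 0.0898% to 0.106% of the transcripts of pDCs, 3.11% to 3.30% of those of cDC1s and 2.84% to 3.42% of those of cDC2s. A smaller separation was much more frequent. In 27.7% of the genes tested every pDC library lay above every cDC library, and in 17.4% every pDC library lay below. The median difference of all genes, pDCs minus the mean of the cDC subsets, was 0.22 on the log2 scale. Just inside the threshold was Ppm1l, whose smaller difference was 3.01, and just outside was Arhgap29 at 2.99. On the lower side, Amz1 was just inside with a smaller difference of 3.01 and Mcm10 just outside with 2.99.

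**Figure D1:**
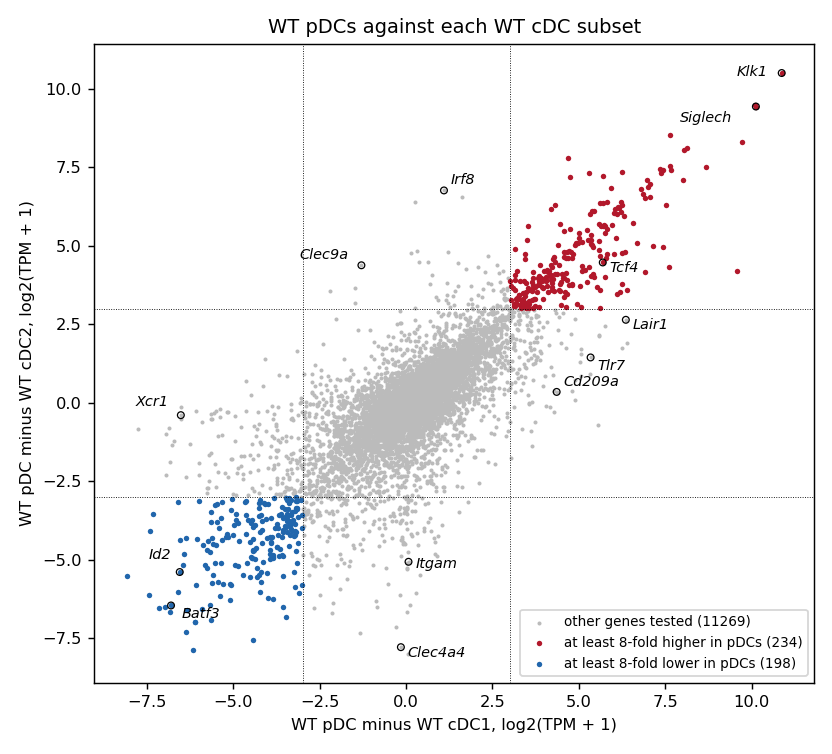
Difference of WT pDCs from WT cDC1s (x axis) and from WT cDC2s (y axis), each in log2(TPM + 1), for 11701 genes. Red points are the 234 genes at least 8-fold higher in pDCs and blue points the 198 at least 8-fold lower. Dotted lines mark 3 and -3, and genes near 0 on 1 axis alone lie close to 1 cDC subset on this scale.

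Siglech, Xcr1 and Clec4a4 were each high in their own subset and low in both others, though pDCs had been sorted on SiglecH. These markers were picked from longer lists whose members did not all follow the labels. Of 20 cDC identity genes, 4 had every pDC library above every cDC library, Clec10a among them, and 5 had every pDC library below. Depth estimated from the spacing of low values was about 18000000 to 19200000 reads, and 3 reads on a transcript of 2000 bases equalled 0.152 to 0.184 TPM. Ranks correlated at 0.984 to 0.994 (Spearman's rho over the genes tested) between libraries of 1 group, 0.878 to 0.894 between cDC1s and cDC2s, and 0.769 to 0.787 between pDCs and cDCs. Genes are not independent replicates, and the last range also spans both tables. Of 15 reference genes used by most cells none was counted, and their median difference was -0.26. Of these, 3 lay above every cDC library and 5 below, beside 27.7% and 17.4% of all genes tested. They do not show that the tables are comparable. The 8 erythroid markers in both tables summed to 1710 to 6170 TPM in pDCs, 385 to 3190 in cDC1s and 1270 to 10700 in cDC2s, with none counted. The 8 T cell markers in both tables summed to 25.8 to 35.0 TPM in pDCs, 6.44 to 7.26 in cDC1s and 27.2 to 32.2 in cDC2s. Of the 4 tested, 1 was counted higher, Cd28, with 14.7 to 20.4 TPM in pDCs and 0.08 to 0.27 in cDCs. Cd28 reached the required mean of 1 TPM through the pDC libraries alone. Cd3e, Cd3d and Cd3g each averaged 1.04 TPM or less in every group. The 6 plasma cell markers summed to 165 to 193 TPM in pDCs, 33.5 to 39.1 in cDC1s and 71.8 to 117 in cDC2s. Of the 5 tested, 1 was counted higher, Mzb1, a chaperone of secretory cells, with 99.2 to 122 TPM in pDCs and 0.52 to 4.57 in cDCs. The part of such cells in the higher genes was not tested. Neutrophil markers summed to at most 35.8 TPM in any library. Fewer cells of a type and less RNA per cell cannot be told apart in such bulk libraries.

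The genes listed here for pDC identity stood far above both cDC subsets. Of 24 identity genes, 22 were at least 8-fold higher, with a median difference of 6.30. The list was chosen with earlier results of these data known. Its count and median are therefore partly built in and are no support for the identity of the cells. Siglech, the gate marker itself, had 4683, 5130.1 and 5131 TPM in pDCs, 3.21 and 3.71 in cDC1s, and 5.16, 6.32 and 7.11 in cDC2s. It ranked between place 8 and place 13 among the genes of each pDC library. As the cells were sorted on this protein, its difference checks the gate and is no finding. The 2 members outside the count were Lair1, an inhibitory receptor that averaged 479 TPM in pDCs, 4.88 in cDC1s and 75.9 in cDC2s, and Ptprc, the leukocyte antigen CD45, which every DC carries.

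The widest gap between pDC and cDC libraries belonged to Klk1, a kallikrein serine protease. It had 2269, 2305 and 2459 TPM in pDCs, 0.56 and 0 in cDC1s, and 0.36, 0.72 and 0.77 in cDC2s. Its relative Klk1b27 had 238, 313 and 296 TPM in pDCs and was listed at 0 in all 5 cDC libraries. The kallikrein genes are close copies, so reads may be shared between them. Ly6d, a surface protein used to mark lymphoid progenitors, reached 4112, 3357 and 3572 TPM in pDCs against 1.69 to 6.98 over the cDC libraries. Cox6a2, the heart and muscle isoform of a cytochrome c oxidase subunit, had 1144, 1261 and 1160.3 TPM in pDCs. The 2 cDC1 libraries had 0.96 and 0 TPM of it and the 3 cDC2 libraries 1.75, 3.62 and 3.15. In each of these genes, the lowest pDC library lay far above the highest cDC library.

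The genes with the next widest gaps had varied roles. Ctsl, the lysosomal protease cathepsin L, had 1271, 1401 and 1586 TPM in pDCs and 3.93 to 11.9 over the cDC libraries. Atp1b1, a beta subunit of the sodium pump, had 778, 726 and 820.0 TPM in pDCs and 0.83 to 5.40 in cDCs. Both genes ranked among the first 205 places of every pDC library. The cadherins Cdh1 and Cdh5, adhesion molecules of epithelium and endothelium, averaged 153 and 212 TPM in pDCs and under 1 TPM in each cDC subset. Epha2, an ephrin receptor, averaged 245 TPM in pDCs and 0.95 and 0.82 in cDC1s and cDC2s. Havcr1, also known as TIM-1, averaged 213 TPM in pDCs and 0.325 and 0.233 in the cDC subsets. The remaining genes of the 20 with the widest gaps included Chdh, an enzyme of choline oxidation, Mctp2, Sla2, and the multicopy genes Tcstv3, AF067061 and AF067063, between whose copies reads cannot be assigned with certainty.

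Genes otherwise tied to lymphoid development were among those higher in pDCs. Of 12 such genes 7 passed the filter on low values, and 3 of them were counted. That filter averaged the pDC libraries as well, so a gene near 0 in cDCs could pass it through pDCs alone. The share of tested genes that was counted is therefore partly built in. Dntt, which adds bases to antigen receptor joints, had 183, 206 and 222 TPM in pDCs and 0 to 0.15 TPM in every cDC library. Blnk, an adaptor of B cell receptor signalling, had 388, 384 and 409 TPM in pDCs and 1.92 to 4.07 in cDCs. Il7r, the interleukin 7 receptor, averaged 181 TPM in pDCs, 7.0 in cDC1s and 15.4 in cDC2s. The recombinase gene Rag1 remained low in pDCs, with 0.96, 0.74 and 0.54 TPM, but was listed at 0 in 4 of the 5 cDC libraries, and the fifth had 0.03. The B cell gene Cd79b, by contrast, averaged 61.3 TPM in pDCs and 33.4 in cDC2s, and Cd79a only 6.86 and 2.29.

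Some of the counted genes were neighbours in the genome. Of the 234 higher genes, 54 had another of the 234 within 100 kb, and of the 198 lower genes 22 had another of the 198. No such share was computed for other genes. The Ly6 cluster on chromosome 15 (GRCm38.p6) held Ly6d, Ly6k, Ly6a, Ly6c1 and Ly6c2 together with Lynx1. Ly6c2 averaged 5013 TPM in pDCs, 24.4 in cDC1s and 12.8 in cDC2s, but is nearly identical to Ly6c1, so their shares are uncertain. Blnk and Dntt are neighbours on chromosome 19, at 40928927-40994221 and 41029275-41059525, and Siglech at 55768154-55779448 on chromosome 7 is followed by Tubgcp5. On the lower side, Batf3 lay beside Atf3 and Lyz1 beside Lyz2. Where such genes overlap or are copies, reads of one may be counted for the other.

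Promoter windows are shown for 6 counted genes because E proteins bind E-boxes and AP-1 factors such as BATF3 bind TGANTCA, where N is any base. Each window runs from 250 bases before to 50 after the RefSeq start, on build GRCm38.p6, 5′ to 3′ on the strand of the gene. Capitals mark the E-box CACCTG, the AP-1 type motif TGANTCA or an interferon-response motif, in which GAAA occurs 2 times with 2 bases between. Both strands were searched, so an E-box may also be printed as CAGGTG. The first 4 genes were higher in pDCs and the last pair lower. They were chosen after the search because each holds a match.
Siglech, chr7:55767934-55768233, plus strand: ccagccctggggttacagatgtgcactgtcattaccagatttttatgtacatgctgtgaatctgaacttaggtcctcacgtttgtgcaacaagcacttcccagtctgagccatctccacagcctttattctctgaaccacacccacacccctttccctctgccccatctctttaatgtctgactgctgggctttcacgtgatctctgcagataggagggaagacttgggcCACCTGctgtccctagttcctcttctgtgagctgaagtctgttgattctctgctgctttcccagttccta
Ccr9, chr9:123766961-123767260, plus strand: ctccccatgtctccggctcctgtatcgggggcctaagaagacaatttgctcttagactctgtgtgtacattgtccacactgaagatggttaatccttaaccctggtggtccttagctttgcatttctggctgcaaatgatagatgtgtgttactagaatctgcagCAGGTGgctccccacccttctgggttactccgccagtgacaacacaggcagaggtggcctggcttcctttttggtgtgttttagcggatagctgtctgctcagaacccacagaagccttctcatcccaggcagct
Blnk, chr19:40994172-40994471, minus strand: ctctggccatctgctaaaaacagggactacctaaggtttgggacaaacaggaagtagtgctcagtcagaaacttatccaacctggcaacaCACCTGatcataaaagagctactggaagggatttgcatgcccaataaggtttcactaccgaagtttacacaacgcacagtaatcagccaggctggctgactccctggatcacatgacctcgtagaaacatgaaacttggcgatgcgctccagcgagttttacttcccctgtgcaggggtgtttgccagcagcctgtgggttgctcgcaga
Bst2, chr8:71537423-71537722, minus strand: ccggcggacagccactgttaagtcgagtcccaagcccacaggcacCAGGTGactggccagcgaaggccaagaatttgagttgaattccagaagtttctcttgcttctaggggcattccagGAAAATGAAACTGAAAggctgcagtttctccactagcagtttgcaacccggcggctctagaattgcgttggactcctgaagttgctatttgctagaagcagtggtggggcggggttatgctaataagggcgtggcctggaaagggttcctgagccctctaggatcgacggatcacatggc
Zbtb46, chr2:181424339-181424638, minus strand: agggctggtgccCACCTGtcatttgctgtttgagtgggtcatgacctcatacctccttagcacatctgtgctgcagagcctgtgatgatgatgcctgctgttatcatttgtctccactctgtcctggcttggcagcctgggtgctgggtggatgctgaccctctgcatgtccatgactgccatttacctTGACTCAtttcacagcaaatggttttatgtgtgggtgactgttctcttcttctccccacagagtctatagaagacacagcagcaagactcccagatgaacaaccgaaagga
Fgl2, chr5:21372423-21372722, plus strand: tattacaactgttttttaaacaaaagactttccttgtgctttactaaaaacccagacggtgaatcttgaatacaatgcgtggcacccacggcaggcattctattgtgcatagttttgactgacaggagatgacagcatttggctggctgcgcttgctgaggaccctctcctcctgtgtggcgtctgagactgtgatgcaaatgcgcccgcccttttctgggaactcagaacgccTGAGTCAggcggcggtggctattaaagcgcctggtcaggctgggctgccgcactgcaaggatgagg

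A single RefSeq window of 300 bases was found for 7558 of the genes tested, 136 of the 234 higher genes and 129 of the 198 lower genes. CACCTG occurred in 35 of the 136 windows of higher genes (25.7%), in 23 of the 129 windows of lower genes (17.8%) and in 16.4% of all 7558. TGANTCA occurred in 10 windows of higher genes (7.35%), in 18 of lower genes (14%) and in 4.68% of all. The interferon-response motif was found in 2.21%, 6.2% and 3.45%, in the same order. Matches of different motifs overlapped in 10 of the 7558 windows. The lower windows with TGANTCA included those of Bcl2a1a, Bcl2a1b and Bcl2a1d, and the higher windows with CACCTG included Klk1 and Klk1b27. These are close copies, so their windows may not count as independent. The windows of the regulators Spib, Runx2, Id2 and Batf3 held none of these motifs. A match is a run of letters and not a measured binding site.

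Of 12 factors tied to pDCs, 4 were at least 8-fold higher and 11 lay above every cDC library, with a median difference of 2.90. Tcf4 had 486, 475 and 472 TPM in pDCs, 6.4 and 10.6 in cDC1s, and 20.3, 22.4 and 19.2 in cDC2s, which is 56.3-fold and 23.2-fold higher in pDCs. Spib, an ETS factor of pDCs and B cells, had 947, 863 and 877 TPM in pDCs, 15.1 and 9.41 in cDC1s, and 72.5, 88.3 and 79.3 in cDC2s. No libraries overlapped in either gene, and cDC2s lay between the other groups. Runx2, which supports the exit of pDCs from bone marrow, had 652, 647 and 579 TPM in pDCs and 10.7 to 22.7 in the cDC libraries. Ets1 had 112, 129 and 110 TPM in pDCs, 0.63 and 0.62 in cDC1s, and 8.55, 9.0 and 9.93 in cDC2s.

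The interferon regulatory factors did not follow the same order. Irf8, required for cDC1s and highly expressed in pDCs, had 3656, 3933 and 3563 TPM in pDCs, 1754 and 1720.2 in cDC1s, and 47.4, 31.5 and 24.2 in cDC2s. It was thus 2.14-fold higher than in cDC1s and 108-fold higher than in cDC2s, and did not meet the rule for both subsets. Irf7, the factor behind the interferon response of pDCs, averaged 665, 158 and 167 TPM in pDCs, cDC1s and cDC2s, 4-fold by the log2 differences of 2.08 and 2.04. Irf4 averaged 46.3 TPM in pDCs and 65.1 in cDC2s, against 5.31 in cDC1s. Zeb2, which represses cDC1 development, had 64.7 to 73.4 TPM in pDCs, 24.1 to 29.8 in cDC2s, and 0.70 and 1.61 in cDC1s.

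Of 15 factors tied to cDCs, 4 were at least 8-fold lower in pDCs and none was counted higher, with a median difference of -1.14. Of the 15, 8 lay below every cDC library and none above. Id2 had 14.3, 15.1 and 18 TPM in pDCs, 1877 and 1313 in cDC1s, and 557, 825 and 758 in cDC2s. Batf3, an AP-1 factor needed for cDC1s, had 1.25, 0.88 and 0.36 TPM in pDCs, 226 and 176 in cDC1s, and 142, 175 and 157 in cDC2s. Zfp366, also called DC-SCRIPT, stayed below 1 TPM in each pDC library and had 77.4 to 133 TPM in the cDC libraries. Zbtb46, which separates cDCs from other myeloid cells, had 7.16, 2.73 and 3.00 TPM in pDCs and 107 to 139 in cDCs. Klf4 and Batf were not separated by the rule, and Spi1, which encodes PU.1, averaged 126 TPM in pDCs against 553 and 707.

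**Figure D2:**
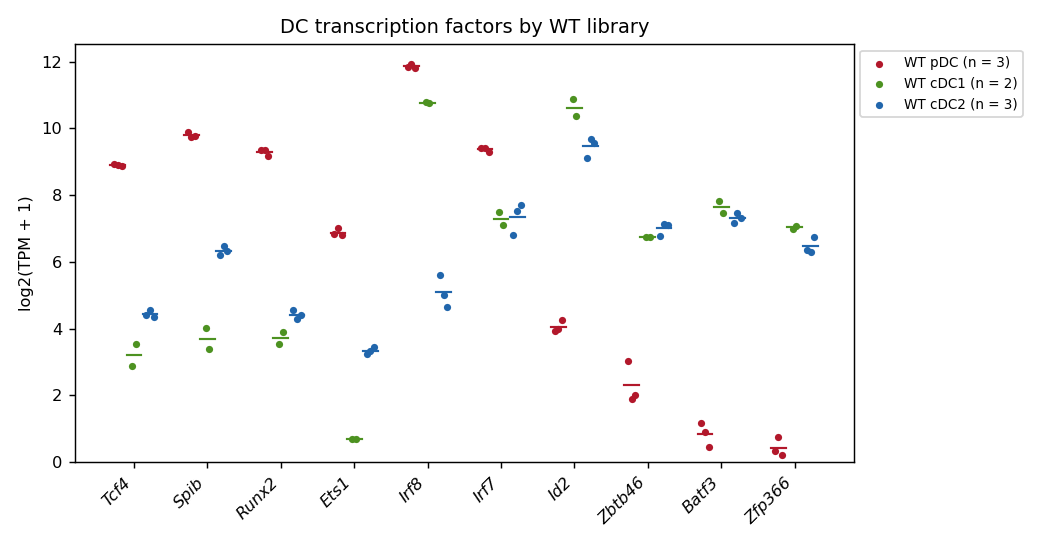
Levels in log2(TPM + 1) of 10 transcription factor genes (x axis) in each WT library, with a bar at the group mean. Tcf4, Spib, Runx2 and Ets1 are high in the 3 pDC libraries, Id2, Zbtb46, Batf3 and Zfp366 are high in the 5 cDC libraries, and Irf8 is high in pDCs and cDC1s.

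In a ratio of 2 genes within a library, a factor common to the library cancels, except for low genes such as Batf3 in pDCs, where the added 1 TPM weighs. The log2 ratio of Tcf4 to Id2, each as TPM + 1, was 4.99, 4.89 and 4.64 in pDCs, -7.99 and -6.83 in cDC1s, and -4.71, -5.14 and -5.23 in cDC2s. Tcf4 was therefore above Id2 in every pDC library and below it in every cDC library. The ratio of Runx2 to Batf3 averaged 8.45 in pDCs, -3.93 in cDC1s and -2.89 in cDC2s. The ratio of Irf7 to Irf5, both interferon regulatory factors, averaged 1.2, -1.75 and -1.02, and that of Tlr7 to Tlr2 averaged 4.09, -2.35 and 1.2. In these 4 pairs every pDC library lay above every cDC library. The ratio of Irf8 to Irf4 averaged 6.30 in pDCs, between 8.12 in cDC1s and -0.93 in cDC2s. Among the other E and ID proteins, Tcf12 averaged 115 TPM in pDCs, 20.8 in cDC1s and 15.2 in cDC2s, and Id3 averaged 14, 1.47 and 2.07.

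Toll-like receptors were divided between the subsets rather than higher in pDCs as a group. Of 12 receptors, 2 were at least 8-fold lower in pDCs, none was counted higher, and 7 lay below every cDC library. Tlr7, the receptor for single-stranded RNA, had 221, 226 and 225 TPM in pDCs, 3.90 and 5.28 in cDC1s, and 80.7, 87.9 and 76.8 in cDC2s. Tlr9, which detects CpG DNA, had 237, 197 and 186 TPM in pDCs, 53.4 and 43.4 in cDC1s, and 72.9, 76.5 and 102 in cDC2s. Both lay above every cDC library, Tlr7 by 48.8-fold over cDC1s but 2.74-fold over cDC2s. Tlr12, a sensor of profilin, averaged 108 TPM in pDCs, 97.4 in cDC1s and 2.96 in cDC2s. Its partner Tlr11 had 0.67, 0.45 and 0.49 TPM in pDCs, 282 and 245 in cDC1s, and 23.2 to 27.5 in cDC2s. Tlr13, a sensor of bacterial ribosomal RNA, averaged 0.617 TPM in pDCs, 62.7 in cDC1s and 88.0 in cDC2s. Tlr3, which detects double-stranded RNA, averaged 0.543 TPM in pDCs, 192 in cDC1s and 6.65 in cDC2s, and Tlr1, a receptor for lipopeptides, averaged 0.64, 9.63 and 152.

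The machinery downstream of the endosomal receptors differed less. None of 16 signalling genes was counted in either direction, and their median difference was 0.15 beside 0.22 for all genes. Unc93b1, which carries these receptors to endosomes, had 1516 to 1578 TPM in pDCs and 791 to 1035 in the cDC libraries. Pld4, an endosomal nuclease, averaged 2326 TPM in pDCs, 520.2 in cDC1s and 722 in cDC2s. Myd88, the shared adaptor, averaged 114, 93.3 and 113 TPM, and its difference turned sign under another scaling. Slc15a4, a transporter needed for this response in pDCs, averaged 154 TPM in pDCs, 25.9 in cDC1s and 107 in cDC2s. The interferon gene Ifnb1 was listed at 0 in all 8 WT libraries.

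Interferon-stimulated genes were not higher in pDCs by their median. Of 21 genes tested, 2 were counted higher and none lower, with a median difference of -0.10. Their sum was higher in pDCs, at 5180 to 5400 TPM, much of it from Bst2. It was 669 to 815 TPM in cDC1s and 1460 to 2120 in cDC2s. Bst2, the antigen of the pDC antibody PDCA-1, had 3691, 3679 and 3589 TPM in pDCs and 94.5 to 129 TPM in the cDC libraries. Ifi44 had 59.7, 55.1 and 60.8 TPM in pDCs and 2.26 to 7.73 in cDCs, and its smaller difference of 3.02 was close to the threshold. It was not counted without WT pDC 3 or WT cDC1 2, nor with median-of-ratios scaling, quantile normalization or FPKM, the other unit deposited. Several others were low in pDCs and cDC1s alike and high in cDC2s. Rtp4 averaged 1.72, 1.07 and 123 TPM in pDCs, cDC1s and cDC2s, and Oas2 averaged 1.70, 0.51 and 79.3. Oasl2 and Ifi27l2a were instead lower in cDC1s alone. In the same order, Oasl2 averaged 70.8, 3.31 and 78.1 TPM, and Ifi27l2a averaged 409, 34.1 and 359. Ifnar2, a chain of the type I interferon receptor, averaged 514 TPM in pDCs against 89.9 and 163, less than 8-fold higher.

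The 15 genes of MHC class II presentation summed to 32500 to 35300 TPM in pDCs, 78600 to 83800 in cDC1s and 66000 to 77900 in cDC2s. The gate required MHC II of the cDC subsets alone, and its part in this difference was not tested. Of these genes 2 were at least 8-fold lower, and 9 lay below every cDC library. H2-Ob, a modulator of peptide loading, had 32.6, 20.6 and 26.0 TPM in pDCs and 276 to 431 in cDCs. Cd83, a maturation marker that stabilises MHC II, had 3.06, 1.74 and 3.01 TPM in pDCs, 371 and 533 in cDC1s, and 435, 387 and 202 in cDC2s. The most abundant member, the invariant chain Cd74, averaged 17041 TPM in pDCs against 36288 and 29447. Its difference from the mean of both subsets was 0.00 under quantile normalization. That method gives genes of the same rank the same value in every library, so it cannot show a difference for a gene at the same rank throughout. Of 12 genes of MHC class I processing none was counted, with a median difference of 0.03, and 5 lay above every cDC library and 1 below. They summed to 19900 to 21100 TPM in pDCs, 13000 to 16000 in cDC1s and 14700 to 16300 in cDC2s.

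Of 8 costimulatory and coinhibitory ligands tested, 3 were at least 8-fold lower and 7 lay below every cDC library. Cd80 had 3.21, 1.68 and 1.4 TPM in pDCs and 58.2 to 86.3 in cDCs. Cd86 had 4.88, 6.62 and 6.23 TPM in pDCs, 288 and 316 in cDC1s, and 98.8, 102 and 84.1 in cDC2s. Cd40, which receives help from T cells, averaged 5.90 TPM in pDCs, 72.3 in cDC1s and 82.8 in cDC2s. The exception was Cd200, a ligand that restrains myeloid cells, with 63.0 to 67.8 TPM in pDCs, 27.4 and 29.7 in cDC1s and 7.71 to 17.0 in cDC2s.

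Cytokine and chemokine genes had the lowest median of the lists shown, -3.01 over 15 genes tested. At least 8-fold lower were 5 of them. Il1b had 1.82, 1.67 and 1.27 TPM in pDCs, 94.6 and 335 in cDC1s, and 758, 252 and 183 in cDC2s, so its cDC libraries varied widely among themselves. Ccl5 averaged 13.7 TPM in pDCs, 623 in cDC1s and 978 in cDC2s, and Cxcl9 averaged 1.12, 339 and 24.0. Cxcl16 averaged 1.94, 253 and 85.5 TPM, and Ccl22, which attracts CCR4+ T cells, averaged 1.27, 116 and 24.6. Ccl4 went the other way, with 278, 489 and 305 TPM in pDCs, 13.3 and 68.7 in cDC1s, and 239, 74.5 and 86.3 in cDC2s. Il12a also lay higher, with 3.47 to 11.9 TPM in pDCs and at most 0.18 in any cDC library, while Il12b averaged 0.33 TPM in pDCs and 85.3 in cDC1s.

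**Figure D3:**
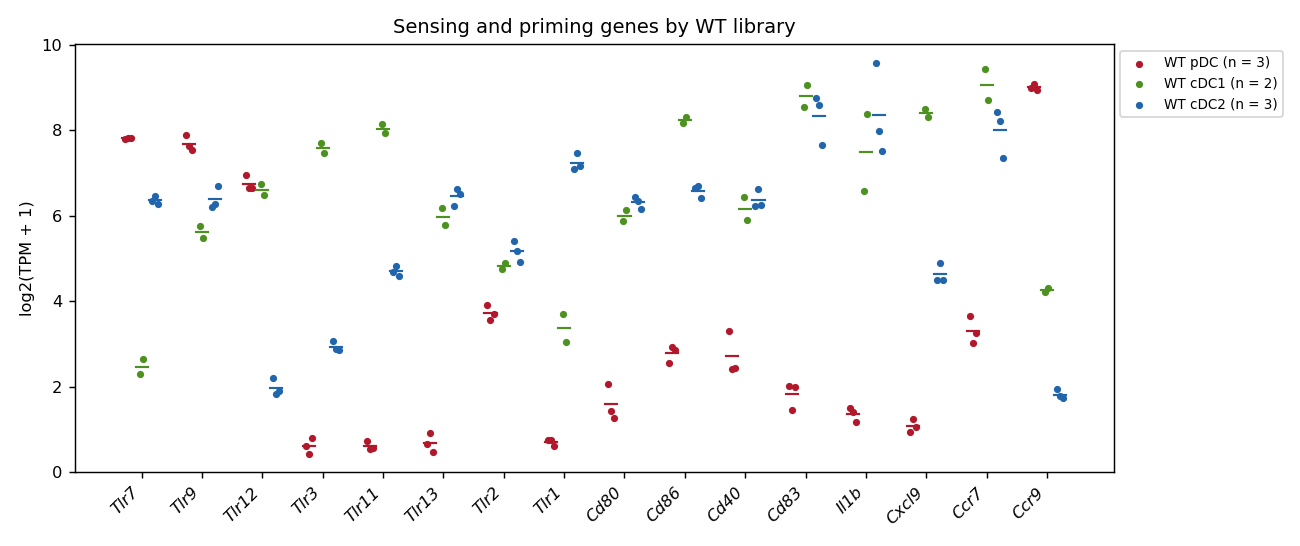
Levels in log2(TPM + 1) of 16 receptor, ligand and cytokine genes (x axis) in each WT library, with a bar at the group mean. Tlr7, Tlr9 and Ccr9 are highest in pDCs, Tlr12 is shared with cDC1s, and the 12 genes from Tlr3 to Ccr7 are lowest in pDCs.

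Chemokine receptors separated the subsets in both directions. Of 12 tested, 3 were at least 8-fold higher in pDCs and 1 was lower. Ccr9, the gut homing receptor whose promoter window is printed above, had 509, 545 and 489 TPM in pDCs, 17.6 and 18.8 in cDC1s, and 2.84, 2.44 and 2.31 in cDC2s. S1pr4, a sphingosine phosphate receptor, had 55.3 to 59.6 TPM in pDCs and 3.17 to 6.81 in cDCs, with a smaller difference of 3.10, close to the threshold. The count of higher receptors was 2 without WT cDC1 1, as it was with FPKM, median-of-ratios scaling or quantile normalization. Ccr7, which guides maturing DCs to lymph nodes, had 11.6, 7.19 and 8.54 TPM in pDCs, 694 and 417 in cDC1s, and 347, 298 and 163 in cDC2s. Cxcr3 was shared with cDC1s in part, with averages of 162, 69.2 and 4.87 TPM.

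Growth factor receptors showed a similar split. Of 17 tested, 3 were at least 8-fold higher and 1 lower. Flt3, the receptor that all DCs depend on, averaged 291 TPM in pDCs, 453 in cDC1s and 325 in cDC2s. Csf2rb2, a beta chain of the interleukin 3 receptor, had 643, 562 and 634 TPM in pDCs and 49.3 to 66.5 in cDCs. Lifr averaged 203, 3.72 and 11.2 TPM. Kit, the receptor of stem cell factor, had 19.96, 10.3 and 12.1 TPM in pDCs, 153 and 143 in cDC1s, and 220.3, 188 and 257 in cDC2s. Csf2ra, the GM-CSF receptor chain, averaged 112 TPM in pDCs against 595 and 392, less than 8-fold lower.

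Genes of the secretory pathway and the unfolded protein response lay modestly higher in pDCs. None of 20 reached 8-fold, but 11 lay above every cDC library, and the median difference was 0.83 beside 0.22 for all genes. Xbp1, the factor that expands the endoplasmic reticulum of secretory cells, had 479, 518 and 460 TPM in pDCs, 133 and 113 in cDC1s, and 81.5, 90.4 and 94.7 in cDC2s. Ern1, which encodes the kinase IRE1 that splices Xbp1, averaged 47.6, 14.6 and 13.2 TPM. Differences of this size cannot be told apart from differences between the tables.

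Cell cycle genes were lower in pDCs almost throughout. Of 25 tested, 9 were at least 8-fold lower and 24 lay below every cDC library, with a median difference of -2.82. Mki67 had 2.16, 1.88 and 1.68 TPM in pDCs, 28.4 and 49.1 in cDC1s, and 60.1, 65.1 and 87.6 in cDC2s. Rrm2, a subunit of the enzyme that makes deoxynucleotides, averaged 1.53, 44.6 and 56.4 TPM. The count of 9 depended on the libraries, as it was 6 without WT cDC1 2 and 12 without WT pDC 2 or WT cDC1 1. Pcna was the gene nearest to cDCs, with 198 to 273 TPM in pDCs and 222 to 347 in the cDC libraries.

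Immediate-early genes, which respond to handling as well as to activation, differed in 6 of 16 genes, all lower in pDCs. Their sum was 7720 to 9610 TPM in pDCs, 8810 to 15000 in cDC1s and 11600 to 30900 in cDC2s. Nr4a1 had 26.0, 74.9 and 35.5 TPM in pDCs, 336 and 1097 in cDC1s, and 3357, 813 and 830.3 in cDC2s, so WT cDC2 1 stood apart. Without WT cDC1 2 the count was 4, and without WT cDC2 1 it was 5. Fosb, Jund and Klf2 had higher averages in pDCs. The part of sample handling in these differences was not tested.

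Among 7 prosurvival genes of the BCL2 family, 3 were at least 8-fold lower, and all were copies of Bcl2a1, which encodes A1. Bcl2a1a had 1.94, 1.22 and 1.4 TPM in pDCs, 277 and 290.5 in cDC1s, and 237, 349 and 205 in cDC2s, the widest gap among the lower genes. Bcl2a1b and Bcl2a1d had 2.67 to 6.45 TPM in pDCs and 373 to 1050 in cDCs. These copies are nearly identical, so the 3 counts may not be independent. Bcl2l2, which encodes BCL-W, had 28.5 to 33.7 TPM in pDCs and 5.42 to 12.8 in cDCs, and Bcl2 overlapped, with 3.77 to 5.81 and 3.27 to 7.64. None of 8 proapoptotic genes tested was counted, 4 lay below every cDC library, and their median difference was -0.61.

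Other genes with wide gaps on the lower side included Anpep, the aminopeptidase CD13, with 2.33, 2.38 and 1.64 TPM in pDCs and 234 to 456 in cDCs. Klri1, a killer lectin-like receptor, had 0.53, 0.81 and 0.91 TPM in pDCs, 123 in both cDC1 libraries, and 357, 489 and 388 in cDC2s. Fgl2, a fibrinogen-like protein, averaged 1.62 TPM in pDCs, 178 in cDC1s and 148 in cDC2s. The metalloproteases Adam8 and Adam23, the ubiquitin ligase subunit Asb2, and Mefv, which encodes pyrin, averaged 0.383 to 3.87 TPM in pDCs and at least 69.7 in each cDC subset. The 20 widest gaps on this side also held H2ac24, Spint1, Tbc1d9, Tgfbi, Ckb and Tmem51.

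**Figure D4:**
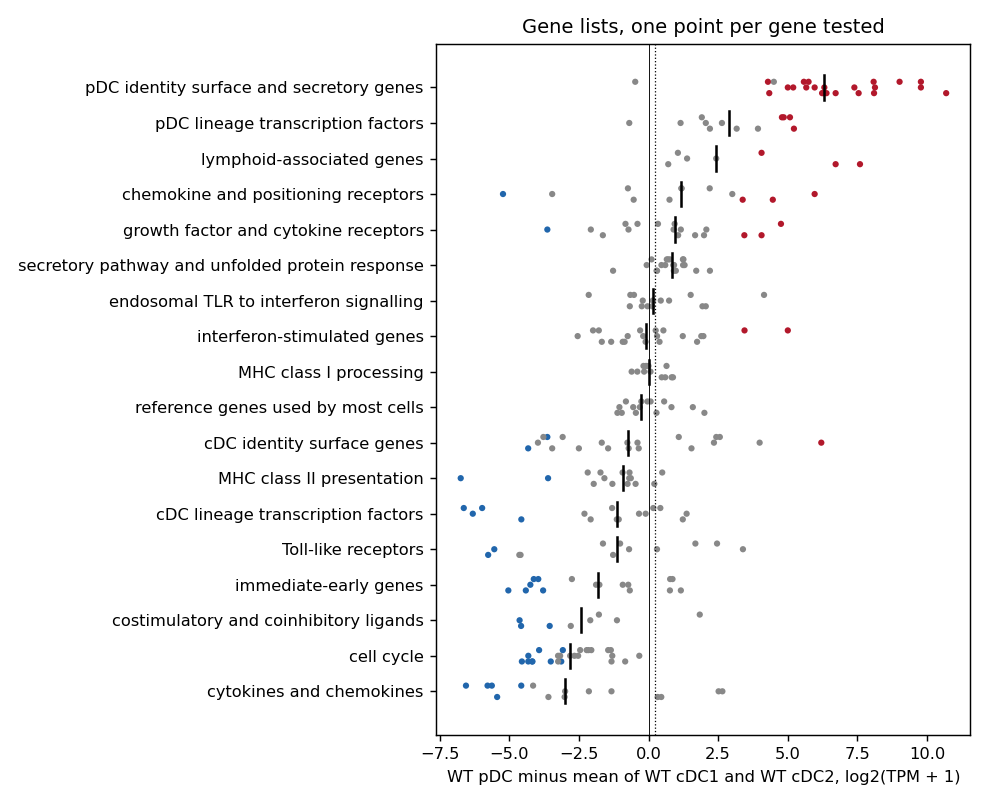
Difference of WT pDCs from the mean of both WT cDC subsets in log2(TPM + 1) (x axis) for the tested genes of 18 lists (y axis). Red and blue points were at least 8-fold higher or lower against both subsets, grey points were not, the black bar is the median of the list, and the dotted line is the median of all genes, 0.22.

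Markers of other myeloid cells differed between the subsets as well and belong beside the comparison. Without Ly6c2, which pDCs express, the other 13 monocyte and macrophage markers summed to 158 to 232 TPM in pDCs, 570.0 to 794 in cDC1s and 1520 to 2230 in cDC2s. Lyz2, a lysozyme of myeloid cells, had 50.6, 60.1 and 39.9 TPM in pDCs, 305 and 540.2 in cDC1s, and 617, 1048 and 798 in cDC2s. Lyz1 and Lyz2 were the members counted lower, and neither was counted without WT cDC1 2, whereas 1 of them was without WT pDC 3. Csf1r averaged 13.6 TPM in pDCs and 157 in cDC2s, Adgre1 averaged 3.79 and 182, and C1qa averaged 18.7 and 115. The part of other myeloid cells in the lower genes was not tested.

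Genes that mark one cDC subset did not follow a single pattern in pDCs. Of 20 cDC identity genes, 1 was counted higher in pDCs and 2 lower. Clec10a, a lectin receptor, had 410, 479 and 472 TPM in pDCs, 1.4 and 1.81 in cDC1s, and 11.1, 17.1 and 12.9 in cDC2s. Esam, an adhesion molecule of cDC2s, had 0, 0.52 and 0.33 TPM in pDCs, 13.5 and 9.06 in cDC1s, and 45.4 to 63.1 in cDC2s. It was 1 of the 2 lower genes together with Kit, and the count was 1 without WT cDC1 1.

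Within the cDC table, where a test is possible, limma called 1241 genes higher (10.9%) and 2371 genes lower (20.8%) in WT cDC1s than in WT cDC2s. The thresholds were an adjusted p of 0.01 and a log2 difference of 0.5, over 11411 genes. The balance was not stable, since quantile normalization gave 1776 higher and 1655 lower, and median-of-ratios scaling 1817 and 1715. Of the 234 genes higher in pDCs, 130 were expressed enough in cDCs to be tested there, and 49.2% of these were called, beside 31.7% of all genes. For the 198 lower genes, all tested, the share called was 44.9%. Selection shapes both shares. The lower genes had to be well expressed in both cDC subsets, where a test has more power. A higher gene could pass the filter there through either subset alone. The shares were therefore not taken as an enrichment. Among the called genes, Ccr9 was higher in cDC1s than in cDC2s by 2.45 ± 0.13 (SE, log2, limma adjusted p = 2.24e-07), and Pacsin1, a pDC adaptor protein, by 2.03 ± 0.19 (adjusted p = 1.31e-05). Spib was lower in cDC1s by -2.64 ± 0.19 (adjusted p = 1.78e-06), and Tcf4 by -1.22 ± 0.18 (adjusted p = 0.000335). Id2 was higher in cDC1s by 1.16 ± 0.19 (adjusted p = 0.000675). For Batf3 the difference was 0.34 ± 0.12 and did not pass (adjusted p = 0.0422).

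A set of genes had pDC levels close to 1 cDC subset and far from the other, by a rule chosen after the values were seen. On the log2(TPM + 1) scale these genes lay within 2-fold of 1 subset and at least 8-fold from the other, with the libraries of pDCs and of the far subset apart. Many genes below the far subset were low in both pDCs and the near subset, where the added 1 TPM weighs. Some were thus more than 2-fold apart in TPM. Oas2 averaged 1.70 TPM in pDCs and 0.51 in cDC1s, and Itgae averaged 0.41 in pDCs and 1.03 in cDC2s. Near cDC1s were 10 genes above cDC2s (0.0855% of those tested) and 92 below them (0.786%). Near cDC2s were 35 genes above cDC1s (0.299%) and 48 below them (0.410%). Among the 92 were the myeloid receptors Itgam, Csf1r, Adgre1 and Clec4a4. Clec4a4, the cDC2 receptor DCIR2, had 0.45, 1.33 and 0.26 TPM in pDCs, 0.62 and 1.00 in cDC1s, and 373, 386 and 320.2 in cDC2s. Among the 48 were Xcr1, the chemokine receptor of cDC1s, with 2.13 to 2.64 TPM in pDCs, 307 and 303 in cDC1s and 1.97 to 6.60 in cDC2s, and the integrin Itgae. Among the 35 was the lectin Cd209a, with 412 to 464 TPM in pDCs, 340 to 346 in cDC2s and 13.7 and 30.1 in cDC1s.

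Clec9a and Cd8a, often used to mark cDC1s, were also present in pDCs. Clec9a, which binds actin of dead cells, had 231, 211 and 218 TPM in pDCs, 547 and 536 in cDC1s, and 13.7, 9.53 and 6.70 in cDC2s. Cd8a had 213, 159 and 144 TPM in pDCs, 489 and 460.1 in cDC1s, and 17.1, 15.0 and 7.65 in cDC2s. The T cell coreceptor gene Cd4 had 940 to 1116 TPM in pDCs, 261 to 366 in cDC2s, and 13.8 and 11.3 in cDC1s. In all of these genes the libraries of the 3 subsets did not overlap.

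Trim33, the targeted gene, had 20.6 to 23.8 TPM in WT pDCs, 15.5 to 20.6 in WT cDCs, 11.7 to 16.5 in cKO pDCs and 7.13 to 8.07 in cKO cDCs. The cKO libraries, which had no part in choosing the genes, gave a similar count of higher genes and a smaller count of lower genes. By the same rule 229 genes (1.98% of 11567) were higher in cKO pDCs than in both cKO cDC subsets, and 113 (0.977%) were lower. Of the higher genes 192 were shared, 82.1% of the WT list and 83.8% of the cKO list. Of the lower genes 93 were shared, 47.0% of the WT list and 82.3% of the cKO list. All 234 higher genes kept their direction in cKO with no overlap of libraries. All 198 lower genes also kept their direction, and in 194 the cKO libraries did not overlap. The share of all genes without overlap was computed for WT alone, where it was 27.7% above and 17.4% below. The cKO pDCs and cKO cDCs are in the same separate tables as the WT libraries. A difference between tables would therefore recur in cKO. The median difference of the higher genes was 4.38 in WT and 4.17 in cKO, and that of the lower genes was -4.32 and -3.44. These WT genes were chosen on WT values, so a smaller difference elsewhere is partly built in. Whether the differences depend on genotype was not tested.

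Among the lower genes that missed the threshold in cKO were Ccr7, with 8.85 to 10.9 TPM in cKO pDCs, 18.5 and 33.7 in cKO cDC1s and 48.7 to 88.3 in cKO cDC2s, and Il1b, with 1.25 to 2.55, 7.79 and 10.3, and 155 to 184. None of the 9 cell cycle genes was counted in cKO. Mki67 had 26.6, 21.5 and 9.71 TPM in cKO pDCs and 84.9 to 116 in cKO cDCs. The lineage factors kept their counts, with Tcf4 at 385 to 441 TPM in cKO pDCs and 15.4 to 20.2 in cKO cDCs, and Id2 at 19.6 to 26.0 and 484 to 1125.

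**Figure D5:**
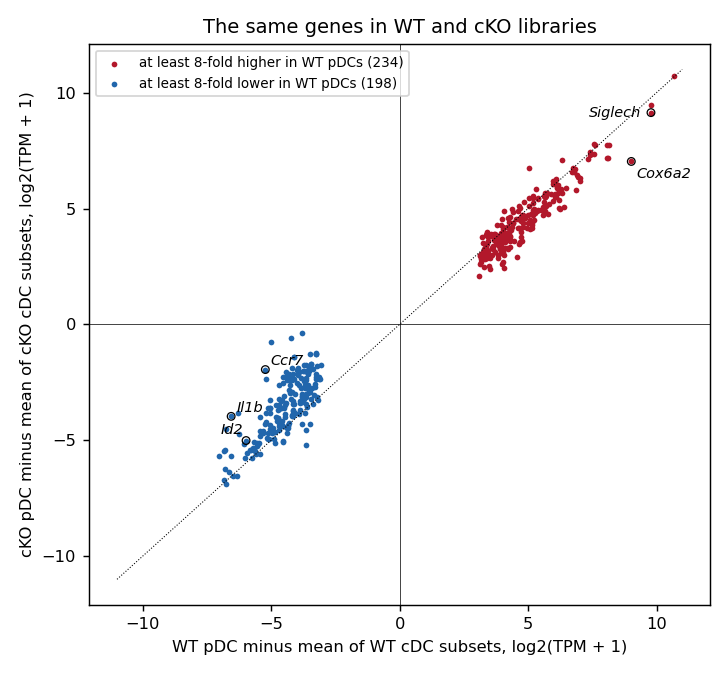
Difference of pDCs from the mean of both cDC subsets in log2(TPM + 1) in WT libraries (x axis) and cKO libraries (y axis) for the 432 genes counted in WT; the dotted line marks equal values. All points keep their sign, the median of the 198 lower genes moves from -4.32 to -3.44, and Ccr7 and Il1b lie nearer to 0 in cKO.

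A further 511 gene IDs were listed in the pDC table alone and 1104 in the cDC table alone. Of these, 15 and 29 had a mean of at least 1 TPM in the WT libraries of their table. The highest were Tcstv1, at 17.8 to 19.6 TPM in the pDC libraries, and Sucnr1, a receptor for succinate, at 0.13 to 54.5 TPM in the cDC libraries. Absence from a table gives no level, so these genes were left out of the comparison.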

How the data were processed

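RNA-seq of sorted splenic DCs was read as single ends of 50 bases, after removal of ribosomal RNA. Per the labels, the authors mapped reads to mm10 with HISAT2 2.0.4 and to transcripts with Bowtie2 2.2.5, and estimated levels with RSEM 1.2.12. The deposited values are TPM and FPKM per gene, and pDCs and cDCs are in separate tables. Read counts were not analysed here. Gene names and coordinates came from RefSeq (GRCm38.p6), which named 16569 of 16617 shared gene IDs. Groups came from the sample titles. No test was run between tables. Inside the cDC table, limma 3.58.1 in R 4.3.3 was fitted to log2(TPM + 1) of 10 libraries in 4 groups, with a mean-variance trend, two-sided, Benjamini-Hochberg adjusted. The authors used DESeq2, which needs counts. The statistical scripts were tested on simulated data. Named genes were list members, the 20 genes with the widest gap in each direction, or the top genes of 1 table alone. Members and lists were chosen with earlier results of these data known. The motif search, the neighbour count and the rule on 1 cDC subset were chosen after seeing the data. Values of some list members are not reported here.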

Additional observations from a re-analysis of the deposited data

How the results depend on the processing

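The counts of 234 higher and 198 lower genes moved little when single libraries were left out, with ranges of 231 to 235 and 191 to 205. With a threshold of 2 in place of 3 on the log2 scale the counts were 478 and 426, and with a threshold of 4 they were 119 and 77. A rank shift of at least 30 points gave 358 and 323. A pseudocount of 0.1 TPM gave 336 higher and 415 lower genes, and comparing with the mean of both cDC subsets gave 303 and 329. FPKM in place of TPM gave 166 and 149. Median-of-ratios scaling gave 203 and 229, quantile normalization 208 and 216. The pseudocount, the mean of both subsets and both scalings turned the balance toward lower genes. Both scalings moved the median of all genes from 0.22 to -0.01 and 0.03. Of 98 counted genes on the lists or among the widest gaps, none turned sign under 13 alternatives for values, whereas 30 uncounted genes did. The counted genes were chosen for large differences without overlap, so a kept sign was largely built in and is no support for them. Inside the cDC table, leaving out single libraries gave 932 to 1337 genes higher and 1717 to 2417 lower in cDC1s. There, higher genes outnumbered lower ones after quantile normalization (1776 and 1655) and median-of-ratios scaling (1817 and 1715). With the replicate block the counts were 1228 and 2096. Deviations from the group means of WT libraries with the same number correlated at -0.53 and -0.38 between cDC1s and cDC2s, for numbers 1 and 2. With 2 WT cDC1 libraries, their deviations are mirror images, so the correlations are not independent and cannot exclude pairing. The main fit did not pair the samples by number. Without replicated libraries of both cell types in 1 table, a difference of any size between pDCs and cDCs could not be separated from one between tables. The 8-fold threshold was a choice and was not set from a measured difference between tables.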
